A study of Mus musculus with 6 samples.

Results

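The collagen genes were taken as every gene on the array whose symbol had the form Col, number, a, number. The array carried 42 such genes of 18193 genes with a probe set of their own, on 82 of 45037 probe sets. Members were chosen by their symbols, and where a gene had several probe sets the one used was chosen by the highest mean intensity over all 6 arrays. Levels are therefore given below as a description. By the kind of structure their proteins form, 11 were fibrillar, 8 belonged to basement membranes and 23 to other classes.

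The arrays measured RNA bound to ribosomes of S100a10-expressing cells in mouse cortex, pulled out through a tagged ribosomal protein (translating ribosome affinity purification, TRAP). Fluoxetine, a serotonin reuptake inhibitor, was in the drinking water at 0.167 mg/ml with 1% saccharine for the 3 fluoxetine samples, and the 3 vehicle samples' mice drank 1% saccharine without it, over 15 to 18 days in both groups. Every sample, fluoxetine and vehicle alike, carried the same S100a10-driven BAC transgene (line ES691), on FVB stock crossed to C57BL/6 for 3 to 5 generations. The replicates are labelled biological, but the sources used here do not give age, sex or how many animals made up a sample. The p-values below measure the spread between these samples. The submitters state that the line labels some non-neuronal cells beside cortical pyramidal cells and advise keeping to a list of probe sets from their paper, a list not applied here. On this bulk material, fewer cells of a type and less RNA per cell cannot be told apart.

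Collagens are extracellular matrix proteins whose chains wind into a triple helix, with a glycine at each turn. Fibrillar collagens (types I, III and V here) build the rope-like fibrils of connective tissue, which in the brain lie in the meninges and around larger vessels. Type IV collagen forms the sheet-like network of the basement membrane under every brain vessel and at the brain's surface. Fibril-associated collagens decorate fibrils, beaded-filament collagen (type VI) links cells to the matrix, and transmembrane collagens are anchored in the cell surface. Several of the last class are made by neurons.

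The stretches of 250 bases before the RefSeq starts of 3 members are shown here, because Col1a2 and Col3a1 were lowest on the same array and Col13a1 stood lower with fluoxetine. They come from RefSeq's promoter windows (GRCm38.p6), 5′ to 3′ on the gene's own strand, at chr6:4505368-4505617 (plus strand), chr1:45311288-45311537 (plus strand) and chr10:61979109-61979358 (minus strand). Capitals mark matches to the TATA box letters TATAAA, to the box named CCAAT and to the GC box letters GGGCGG, on either strand, none of which overlapped another.
Col1a2: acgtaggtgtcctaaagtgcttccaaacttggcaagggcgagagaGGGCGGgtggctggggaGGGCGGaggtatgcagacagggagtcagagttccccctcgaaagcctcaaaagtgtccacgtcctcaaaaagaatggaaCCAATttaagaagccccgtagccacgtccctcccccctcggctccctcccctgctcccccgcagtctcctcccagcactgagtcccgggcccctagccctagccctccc
Col3a1: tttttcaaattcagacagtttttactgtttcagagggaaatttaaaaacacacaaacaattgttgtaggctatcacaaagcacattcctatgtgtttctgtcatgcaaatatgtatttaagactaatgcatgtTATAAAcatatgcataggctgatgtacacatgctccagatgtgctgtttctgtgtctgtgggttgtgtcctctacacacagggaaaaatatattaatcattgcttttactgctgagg
Col13a1: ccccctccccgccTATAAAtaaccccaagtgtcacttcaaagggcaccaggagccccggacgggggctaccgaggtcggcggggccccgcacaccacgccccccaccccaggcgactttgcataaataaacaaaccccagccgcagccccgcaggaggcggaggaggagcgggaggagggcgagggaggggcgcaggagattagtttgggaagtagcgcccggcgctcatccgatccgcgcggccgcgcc
The Col1a2 stretch held GGGCGG at 205 and 188 bases and CCAAT at 109 bases before the start. The Col3a1 stretch held TATAAA at 117 bases before the start, and that of Col13a1 held it at 237 bases. A gene can have several windows. Of the 38 windows of collagen genes, 22 (57.9%) held GGGCGG, against 32.7% of all 32851 windows of that length. TATAAA was in 13.2% of the collagen windows and 12.4% of all, and CCAAT in 34.2% and 33.8%. A window was found for 33 of the 42 genes. In the same set Col4a1 and Col4a2 start 21 bases apart on opposite strands. No binding or chromatin data accompany the arrays, so the matches are letters only.

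Of the 42 genes, 26 reached a geometric mean intensity of 50 over the 6 arrays and were tested. These were 5 of 11 fibrillar, 5 of 8 basement membrane and 16 of 23 other collagens. The submitters advise a minimum of 50, and the form used here does not look at the groups. Intensities of different probe sets depend on their own probes, so no gene's level is set against another's below. Just inside the filter was Col9a1, with a geometric mean of 52.4. Just outside were Col15a1, a basement membrane proteoglycan, at 46.1 and Col5a3, the third type V chain, at 45.8. Col15a1 read 67.4, 45.5 and 34.1 in the fluoxetine samples and 46.5, 33.4 and 59.3 in the vehicle samples, a full overlap. Col5a3 read 57.7, 42.3 and 44.9 with fluoxetine and 44.2, 41.1 and 46.7 with vehicle. The other 14 genes below the filter, among them the cartilage genes Col2a1, Col10a1, Col11a1 and Col11a2 and the kidney and eye chains Col4a3 and Col4a4, stayed under 50 on every array. Of all 16 below the filter, 14 differed by more than 0 and 2 by less (fluoxetine minus vehicle, median 0.13 in log2). Among all genes below the filter 71.3% differed by more than 0, so most dim probe sets leaned this way.

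The comparison asks whether prolonged fluoxetine moved collagen transcripts in the ribosomes of these cells. All 5 measured fibrillar genes had higher means with fluoxetine, by 0.09 to 0.75 in log2. Among these 5 are Col1a1 and Col3a1, whose values were known when the collagens were picked. On their brightest probe sets Col1a1, Col4a2 and Col18a1 had groups that did not overlap. Col13a1 and Col8a2 had lower values in every fluoxetine sample than in any vehicle sample. None of the 26 passed limma's moderated test over 22326 probe sets, with a smallest adjusted p of 0.999. The adjusted test called 0.0% of all tested probe sets (563, or 2.52%, had an unadjusted p under 0.05).

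Over all 26 genes, 16 were higher and 10 lower with fluoxetine, and the median difference was 0.11 in log2. Among the 16, Col9a1 had a group mean above 50 only with fluoxetine (5.81 with fluoxetine and 5.61 with vehicle, mean log2). Its passing of the filter thus rested on the fluoxetine mean, though each group had samples on both sides of 50. With a geometric mean of 50 required in both groups 15 of 25 were higher and the median was 0.09. Over all 12248 tested genes 31.5% were higher, 68.5% lower and the median was −0.06. With array medians made equal 20 of the 26 were higher, against 49.4% of all genes, and after quantile normalization 18, against 49.2%. An unadjusted p under 0.05 was reached by 3 collagen genes higher (11.5%, background 0.71%) and 1 lower (3.85%, background 1.95%). Groups did not overlap for 3 higher (11.5%, background 2.32%) and 2 lower (7.69%, background 5.99%). Counts this small were read only beside these shares. The collagens were picked with the values of Col1a1 and Col3a1 already known. Both are among the 3 higher genes by unadjusted p, beside Col4a2, and Col1a1 is among the 3 higher genes without overlap. The gap between these counts and the background shares is therefore partly built in by the choice of genes.

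**Figure D1:**
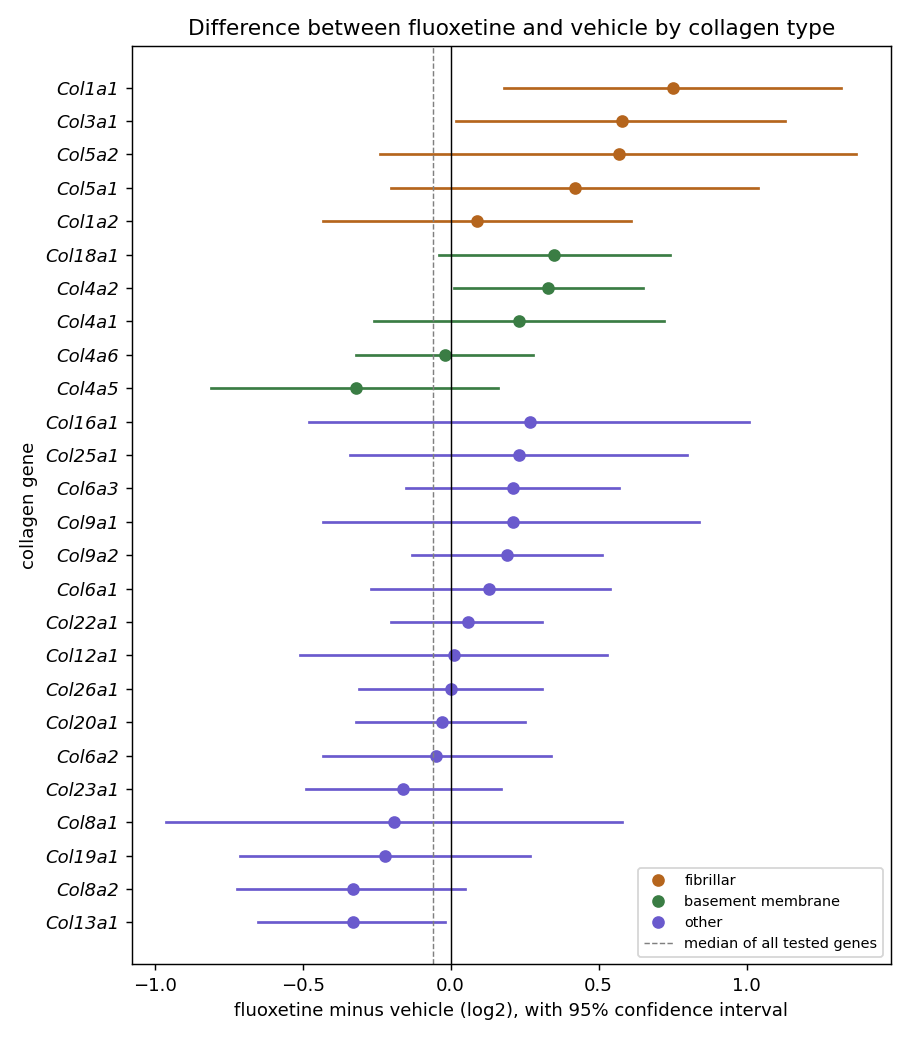
Difference in log2 intensity, fluoxetine minus vehicle, of the 26 tested collagen genes, 1 row per gene, with 95% confidence intervals from limma (3 arrays against 3) and colours for collagen type. The 5 fibrillar genes lie between 0.09 and 0.75, all right of 0, while the other class spreads from −0.33 to 0.27; the dashed line is the median of all tested genes at −0.06.

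The fibrillar genes had a median difference of 0.57 in log2, a fold of 1.48. Col1a1 and Col3a1, known before the choice of genes, had the largest differences of the 5. This median and the count of 5 higher are therefore partly built in too. The remaining chains Col1a2, Col5a1 and Col5a2 differed by 0.09, 0.42 and 0.57, each with overlap between groups. Col1a1, the chain present in the larger share in type I collagen, read 8.23, 7.33 and 7.52 in the fluoxetine samples and 6.89, 6.80 and 7.16 in the vehicle samples (log2 intensity). Every fluoxetine sample lay above every vehicle sample, and fluoxetine 1 stood apart at the top. The difference was 0.75 ± 0.24 in log2 (SE), a fold of 1.68, with a 95% interval of 0.18 to 1.32 (limma, unadjusted p = 0.0172, adjusted p = 0.999). Without fluoxetine 1 it was 0.48.

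Col1a2, the partner chain of Col1a1 in type I collagen, read 11.82, 11.40 and 11.84 with fluoxetine and 11.15, 11.81 and 11.83 with vehicle. Apart from a low vehicle 1 the groups were interleaved. The difference was 0.09 ± 0.22 (SE, 95% interval −0.43 to 0.61), and −0.13 without vehicle 1. Col3a1, whose type III collagen often shares fibrils with type I, read 10.44, 9.90 and 10.36 with fluoxetine and 9.28, 9.60 and 10.08 with vehicle. The groups overlapped through vehicle 3, which lay above fluoxetine 2. It differed by 0.58 ± 0.24 (SE), a fold of 1.49 (limma, unadjusted p = 0.0437, adjusted p = 0.999).

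Type V collagen is a minor partner inside type I fibrils and helps to set their width. Its gene Col5a1 read 7.81, 7.28 and 7.48 with fluoxetine and 6.61, 7.09 and 7.61 with vehicle, a difference of 0.42 ± 0.27 (SE). Col5a2 read 9.94, 8.60 and 8.90 with fluoxetine and 8.29, 8.60 and 8.86 with vehicle, a difference of 0.57 ± 0.34 (SE). For Col5a2 the gap was made by fluoxetine 1, without which it was 0.17. For Col5a1 it was 0.17 without vehicle 1.

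Array by array, the fibrillar genes shared a pattern: fluoxetine 1 was highest for 4 of the 5 and vehicle 1 lowest for 4. Their median deviations from each gene's own mean were 0.50, −0.05 and 0.20 for fluoxetine 1, 2 and 3, against −0.58, −0.27 and 0.14 for vehicle 1, 2 and 3. Vehicle 3 thus lay above fluoxetine 2. With fluoxetine 1 and vehicle 1 both left out, a choice made after these values were seen, 4 of the 5 were still higher but the median difference was 0.03, against 0.57 with all arrays. All genes together had a median of −0.11 in that setting. Col1a1 then differed by 0.45 and Col3a1 by 0.29, while Col1a2 was at −0.19.

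**Figure D2:**
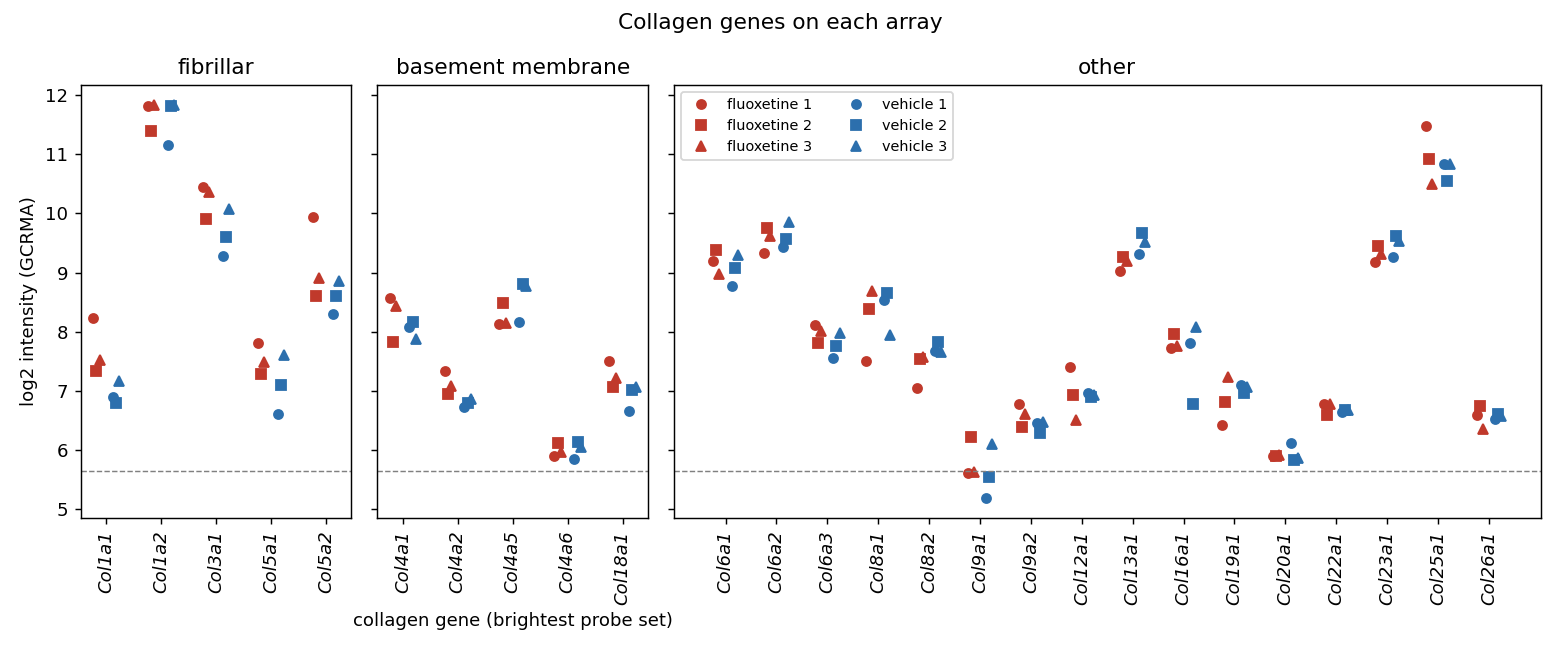
Log2 intensity of each tested collagen gene on each array, by collagen type, with fluoxetine in red left of vehicle in blue and 1 marker shape per replicate number; the dashed line is the filter at 50. For Col1a1 all red points lie above the blue ones, whereas for Col1a2 and Col5a1 the low point is vehicle 1, and for Col5a2 the high one is fluoxetine 1.

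The basement membrane genes were mixed, with 3 higher, 2 lower and a median of 0.23 in log2. Col4a1 and Col4a2 encode the chains of the common type IV network. Col4a2 read 7.34, 6.94 and 7.08 with fluoxetine and 6.73, 6.79 and 6.86 with vehicle. The groups did not overlap, and the difference was 0.33 ± 0.14 (SE), a fold of 1.26 (limma, unadjusted p = 0.0461, adjusted p = 0.999). Col4a1 read 8.57, 7.82 and 8.43 with fluoxetine and 8.08, 8.17 and 7.88 with vehicle, and fluoxetine 2 was the lowest of the 6. Its difference was 0.23 ± 0.21 (SE), and 0.08 without fluoxetine 1.

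Col18a1, a heparan sulfate bearing collagen of vessel and surface membranes whose tail is released as endostatin, read 7.50, 7.07 and 7.22 with fluoxetine and 6.66, 7.02 and 7.06 with vehicle. The groups were separated by a gap far smaller than the spread within either, and the difference was 0.35 ± 0.17 (SE). Col4a5, a chain of a second type IV network, went the other way. It read 8.13, 8.49 and 8.14 with fluoxetine and 8.16, 8.81 and 8.77 with vehicle, a difference of −0.32 ± 0.21 (SE). Its head-to-head neighbour on the X chromosome, Col4a6, differed by −0.02 ± 0.13. Leaving out fluoxetine 1 and vehicle 1 gave a median of 0.10 for this class, with Col4a2 at 0.18 and Col18a1 at 0.11. Without fluoxetine 1 alone it was 0.08, and without fluoxetine 2 alone 0.42.

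The other collagens divided evenly, 8 higher and 8 lower, with a median of 0.00. Type VI collagen, the beaded-filament class, was represented by 3 genes. Col6a1 differed by 0.13 ± 0.17, Col6a2 by −0.05 ± 0.16 and Col6a3 by 0.21 ± 0.15 (log2, SE), and the groups overlapped for each. The sign for Col6a2 turned with quantile normalization and with a shift of each array to a common median.

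The short-chain network collagens of type VIII, found in vessel walls and in the cornea, were both lower. Col8a2 read 7.05, 7.53 and 7.57 with fluoxetine and 7.67, 7.82 and 7.66 with vehicle. No fluoxetine sample reached the lowest vehicle sample, and the difference was −0.33 ± 0.16 (SE, limma unadjusted p = 0.0795, adjusted p = 0.999). Without fluoxetine 1 it was −0.17. Col8a1 read 7.50, 8.39 and 8.68 with fluoxetine and 8.54, 8.66 and 7.94 with vehicle. Its difference of −0.19 ± 0.33 turned to 0.16 without fluoxetine 1, the lowest of the 6. A further Col8a1 probe set above the filter was lowest on fluoxetine 2 instead. It differed by −0.10 ± 0.20, or −0.24 without fluoxetine 1.

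Of the 7 measured fibril-associated collagens, 5 were higher and 2 lower (median 0.06). Col16a1 read 7.73, 7.96 and 7.75 with fluoxetine and 7.80, 6.77 and 8.07 with vehicle. Its difference of 0.27 ± 0.32 came from vehicle 2 alone, without which it was −0.12. Col19a1, which in mouse is made by some interneurons and takes part in forming inhibitory synapses, read 6.42, 6.81 and 7.24 with fluoxetine and 7.09, 6.97 and 7.07 with vehicle. The fluoxetine samples lay on both sides of the vehicle samples, and the difference was −0.22 ± 0.21, or −0.02 without fluoxetine 1. Col9a1 (0.21 ± 0.27) and Col9a2 (0.19 ± 0.14), chains of the cartilage collagen type IX, overlapped between groups. So did Col12a1 (0.01 ± 0.22), a partner of type I fibrils, Col20a1 (−0.03 ± 0.12) and Col22a1 (0.06 ± 0.11).

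The transmembrane collagens were 3 genes, 2 of them lower. Col13a1, known for its part in maturing the neuromuscular synapse, read 9.02, 9.26 and 9.20 with fluoxetine and 9.31, 9.66 and 9.52 with vehicle. Every fluoxetine sample lay below every vehicle sample, by a gap of little size between fluoxetine 2 and vehicle 1. The difference was −0.33 ± 0.14 (SE), a fold of 0.793, with a 95% interval of −0.65 to −0.02 (limma, unadjusted p = 0.0418, adjusted p = 0.999). Leaving out any 1 array kept it between −0.43 and −0.25, and without both fluoxetine 1 and vehicle 1 it was −0.36.

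Col23a1 read 9.17, 9.44 and 9.32 with fluoxetine and 9.26, 9.62 and 9.53 with vehicle, a difference of −0.16 ± 0.14 (SE). Its groups overlapped on this probe set. The further probe sets of Col23a1 differed by −0.14 with overlap and by −0.20 with no overlap. Col25a1, a neuronal collagen first isolated from amyloid plaques, read 11.47, 10.92 and 10.50 with fluoxetine and 10.84, 10.54 and 10.83 with vehicle. Both the highest and the lowest sample were fluoxetine samples. Its difference was 0.23 ± 0.24 (SE), and −0.02 without fluoxetine 1. Col26a1, a collagen of no settled class, was at 0.00 ± 0.13.

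Further probe sets were available as a check for 10 of the 26 genes. All 11 of them that passed the filter had the sign of the brightest probe set. They share RNA and arrays with it, so they bear on probe behaviour and not on the spread between samples. The second Col1a1 probe set read 7.03, 6.42 and 6.91 with fluoxetine and 5.85, 6.21 and 6.81 with vehicle. There the groups overlapped through vehicle 3, and the difference was 0.50 ± 0.27 (SE). That of Col5a1 differed by only 0.07 ± 0.11, against 0.42 for the brightest. For Col4a1 the second probe set differed by 0.31 ± 0.16 with no overlap, where the groups of the brightest overlapped. For Col18a1 it differed by 0.26 ± 0.22 with overlap, where the brightest had none. For Col19a1 it differed by −0.37 ± 0.16 with no overlap, where the groups of the brightest overlapped. Without fluoxetine 1 these were 0.15, 0.05 and −0.33. Without vehicle 1 the second Col1a1 probe set differed by 0.28 and that of Col18a1 by 0.11.

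**Figure D3:**
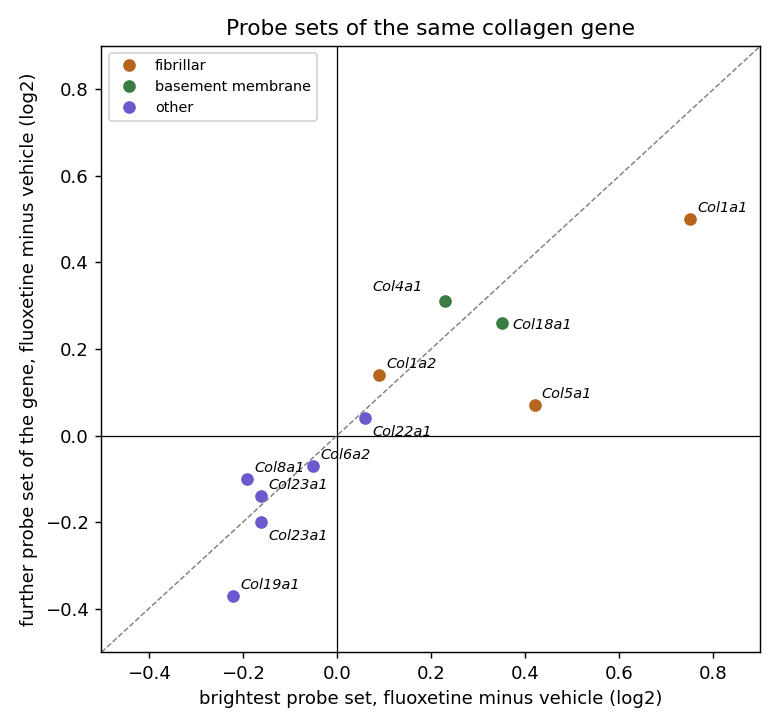
Difference in log2 intensity, fluoxetine minus vehicle, for each further probe set above the filter (vertical) against the brightest probe set of the same gene (horizontal), with the line of equality dashed. All 11 points lie in the quadrants of equal sign; Col5a1 lies furthest below the line, at 0.07 against 0.42.

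Collagen chains of one type assemble together, so the differences of partner chains were set against each other over the arrays. In 9 pairs of chains within types I, IV, V, VI, VIII and IX, picked after the values were known, no pair separated. The widest gap was that of Col1a1 over Col1a2, 0.65 in log2 (exact two-sided permutation p = 0.2, adjusted over the pairs 0.9, where 3 arrays against 3 cannot go below 0.1). The differences of Col4a5 and Col4a6 lay −0.30 apart (exact permutation p = 0.2, adjusted 0.9) and those of Col4a1 and Col4a2 −0.10 apart (exact permutation p = 0.5, adjusted 0.9). With so few arrays such p-values do not show that partner chains act alike.

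Across all 26 genes, fluoxetine 1 was the highest array for 12 (46.2%), against 25.6% of all tested genes, and vehicle 1 the lowest for 10 (38.5%), against 12.9% of all. Fluoxetine 1 was also the lowest array for 7 others (26.9%), against 17% of all tested genes: Col4a5, Col6a2, Col8a1, Col8a2, Col13a1, Col19a1 and Col23a1. Vehicle 3 was the lowest for none of the 26. Fluoxetine 1 was highest for Col1a1, Col3a1, Col5a1, Col5a2, Col4a1, Col4a2 and Col18a1. In the other class it was highest for Col6a3, Col9a2, Col12a1, Col22a1 and Col25a1 (5 of 16, 31.2%). It was lowest for 6 of that class (37.5%), among them both type VIII genes and 2 of the 3 transmembrane genes. The third transmembrane gene was Col25a1.

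**Figure D4:**
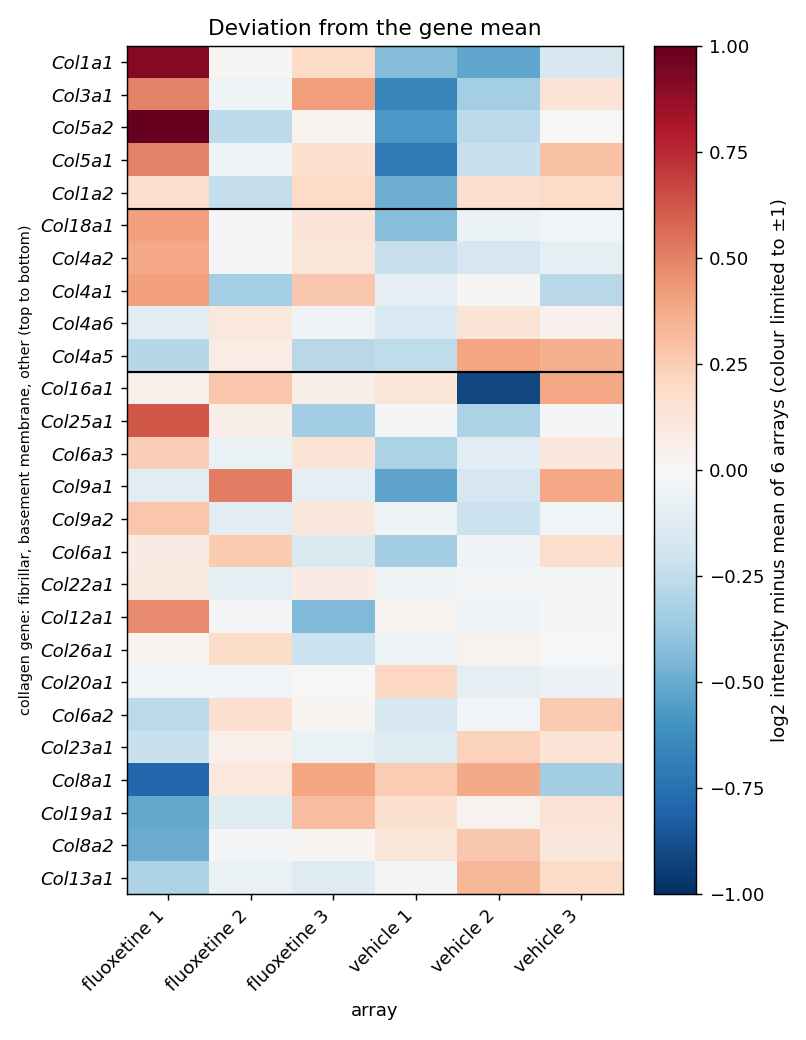
Deviation of each array from the gene's mean over 6 arrays, in log2 intensity, with genes in rows by class and arrays in columns, fluoxetine left of vehicle. Fluoxetine 1 is high (red) for the fibrillar genes and low (blue) for Col8a1, Col8a2, Col13a1 and Col19a1, vehicle 1 is low for the fibrillar genes, and the deepest blue in vehicle 2 is Col16a1.

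Genes that make, cross-link, bind and break down collagen were read beside the collagens, and 0 of the 51 measured passed limma's adjusted test. Of 14 measured folding and modification genes, 6 were higher and 8 lower (median −0.03). P4ha2, a prolyl hydroxylase subunit that stabilises the helix, read 7.01, 6.66 and 6.52 with fluoxetine and 7.13, 7.07 and 7.21 with vehicle, a difference of −0.41 ± 0.15 (SE) with no overlap. Plod3, a lysyl hydroxylase, differed by 0.23 ± 0.13, also with no overlap. Over all tested genes 2.32% were higher and 5.99% lower with no overlap.

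Outside the cell, 5 of 6 processing and cross-linking genes were higher (median 0.10). The smallest p-values were those of the cross-linking enzyme Lox at 0.45 ± 0.29 and the propeptide-cutting protease Bmp1 at 0.15 ± 0.14 (SE), at 0.17 and 0.08 without fluoxetine 1. Lox had a group mean above 50 only with fluoxetine (6.07 with fluoxetine and 5.62 with vehicle, mean log2), though vehicle 1 alone read an intensity of 67.1. With 50 required in both groups 4 of 5 were higher and the median was 0.05. Of the collagen receptors 4 of 6 were higher (median 0.08). Itga1, the α subunit of a collagen-binding integrin, read 6.60, 6.66 and 6.40 with fluoxetine and 5.47, 5.82 and 6.19 with vehicle, a difference of 0.73 ± 0.19 with no overlap (limma, unadjusted p = 0.00692, adjusted p = 0.999). Its partner subunit Itgb1 differed by 0.12 ± 0.11, also with no overlap.

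Among matrix proteases and their inhibitors 6 of 8 were higher (median 0.12). The inhibitors Timp4 (0.45 ± 0.25) and Timp1 (0.57 ± 0.41) had the smallest p-values, at 0.18 and 0.06 without fluoxetine 1. Fibril-binding proteins were 3 higher and 5 lower (median −0.02). The proteoglycan genes Lum and Bgn differed by 0.48 ± 0.22 with no overlap and by −0.26 ± 0.21 with overlap. Without fluoxetine 1 these were 0.23 and −0.04. After the common-median shift 6 of those 8 were higher. Basement membrane partners were 3 higher and 6 lower (median −0.06). There Nid1, which links laminin to type IV collagen, differed by 0.53 ± 0.20 with no overlap and Lamb2, a laminin chain, by −0.38 ± 0.13 with no overlap. Without vehicle 1 Nid1 differed by 0.32. Without fluoxetine 1 and vehicle 1 together, 1 of 14 folding genes and 2 of 6 processing genes were higher. In that setting 2 of 6 receptors and 3 of 8 protease and inhibitor genes were higher, against 25.5% of all tested genes. The fibril-binding and basement membrane lists are not given for it.

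The labelled cells and the other cells of cortex were read through marker lists. S100a10 read 15.09, 15.17 and 14.98 with fluoxetine and 15.07, 15.22 and 15.17 with vehicle (log2 intensity). Slc17a7, the glutamate transporter of cortical pyramidal cells, read 10.25, 10.30 and 9.13 with fluoxetine and 9.68, 8.95 and 9.68 with vehicle. Of 9 pyramidal markers 7 were measured. All 12 fibroblast and meningeal markers also passed the filter, with Dcn, Aldh1a2 and Slc13a4 among them. So did 4 of 6 choroid plexus, 7 of 12 pericyte and smooth muscle, 7 of 10 endothelial and 10 of 10 astrocyte markers. The pericyte and smooth muscle genes above the filter were Rgs5, Pdgfrb, Cspg4, Vtn, Acta2, Tagln and Des. Their geometric means ran from 50.3 for Des to 3780 for Vtn. The endothelial genes above it were Cldn5, Cdh5, Flt1, Kdr, Slco1a4, Abcb1a and Slc2a1, from 52.2 for Flt1 to 3780 for Slc2a1. The smooth muscle genes Myh11 and Cnn1, the pericyte genes Kcnj8 and Abcc9 and the endothelial genes Pecam1 and Tek were below it.

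The list most tied to fibrillar collagen, the fibroblast and meningeal one, had array means of 11.92, 11.98 and 11.81 with fluoxetine and 11.76, 11.99 and 12.02 with vehicle (log2). Its members were 5 higher and 7 lower, with Lum at 0.48, Pdgfra at 0.29 and Igf2 at −0.45. Lum and Dcn were also counted among the fibril-binding genes above. Pdgfra, and Cspg4 of the pericyte and smooth muscle list, are also among the oligodendrocyte precursor markers below. The mean of the list was lowest on vehicle 1, the array that was lowest for the fibrillar genes too, and highest on vehicle 3. Of its 12 members 5 (Dcn, Lum, Aldh1a2, Pdgfra and Islr) were highest on fluoxetine 1 (41.7%, against 25.6% of all tested genes). Another 4 were lowest on it (33.3%, against 17% of all tested genes). The list's median deviation on fluoxetine 1 was −0.02. Pericyte and smooth muscle markers averaged 8.83, 9.09 and 9.14 with fluoxetine and 9.14, 9.41 and 9.54 with vehicle, 0 of 7 higher (0 of 6 without Des, which was under 50 with fluoxetine). Endothelial markers averaged 7.54, 7.72 and 7.48 with fluoxetine and 7.46, 7.75 and 7.77 with vehicle, 2 of 7 higher (1 of 6 without Flt1, which was under 50 with vehicle).

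The mean of the astrocyte markers peaked on fluoxetine 1, as that of the fibrillar genes did. They averaged 11.95, 10.70 and 11.47 with fluoxetine and 10.81, 10.96 and 10.96 with vehicle. Fluoxetine 1 was highest for 5 of the 10 (50.0%), against 25.6% of all tested genes. Vehicle 1 was lowest for 0 of the 10, unlike for the fibrillar genes. Gfap, the astrocyte filament, had the widest range, at 12.13, 4.49 and 9.02 with fluoxetine and 4.70, 5.24 and 5.67 with vehicle. It passed the filter only through fluoxetine 1 and 3, and the other 9 averaged 11.93, 11.39 and 11.75 with fluoxetine and 11.49, 11.59 and 11.55 with vehicle, 4 of 9 higher. Sox9, a transcription factor of astrocytes, read 8.89, 8.74 and 8.68 with fluoxetine and 8.17, 8.16 and 8.23 with vehicle. Its groups did not overlap, and the difference was 0.58 ± 0.11 (SE, limma unadjusted p = 0.00109, adjusted p = 0.999), or 0.52 without fluoxetine 1. Oligodendrocyte precursor markers, whose mean was also highest on fluoxetine 1, averaged 8.94, 7.85 and 8.69 with fluoxetine and 8.36, 8.60 and 8.49 with vehicle. Microglial markers averaged 8.37, 8.49 and 8.97 with fluoxetine and 8.29, 8.61 and 8.64 with vehicle. Choroid plexus markers averaged 8.31, 8.88 and 7.81 with fluoxetine and 7.88, 8.15 and 8.37 with vehicle. Most of that spread was Ttr, which read 7.93, 9.64 and 6.12 with fluoxetine and 6.36, 6.58 and 7.33 with vehicle. The other 3 averaged 8.43, 8.62 and 8.37 with fluoxetine and 8.39, 8.67 and 8.71 with vehicle. The part of these cells in the collagen values was not tested.

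**Figure D5:**
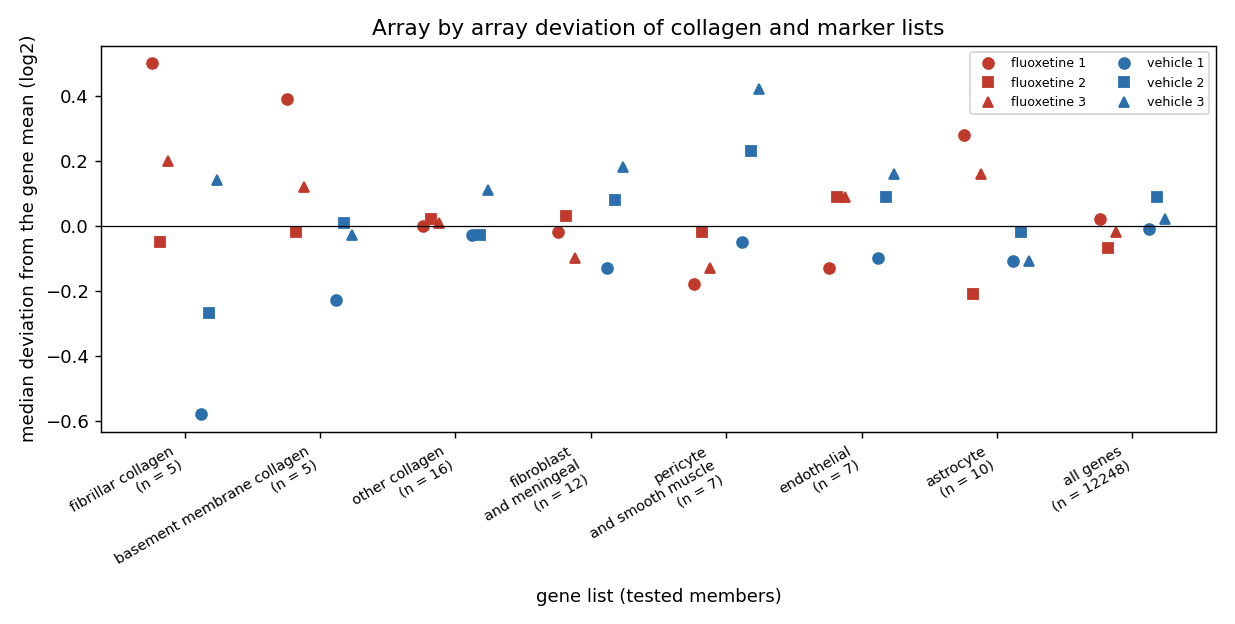
Median deviation of each list's tested genes from their own means, in log2, on each array, with fluoxetine in red left of vehicle in blue and 1 marker shape per replicate number. Fibrillar collagen spans −0.58 on vehicle 1 to 0.50 on fluoxetine 1; the fibroblast and meningeal markers span −0.13 to 0.18 and all genes −0.07 to 0.09.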

How the data were processed

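TRAP RNA of 3 fluoxetine and 3 vehicle samples was measured on single-colour Affymetrix arrays after 2 rounds of amplification from 15 ng, per the labels' protocols. The authors deposited linear intensity values from GCRMA, as the submitters' processing notes name it (version not given in the sources used here). This method models background from probe sequence and equalises the arrays, which can compress dim values. The arrays' median intensity lay between 47.3 and 48.6, but the upper quartile ran from 498 on fluoxetine 2 to 574 on vehicle 2. Of all tested genes 31.3% were highest on vehicle 2 and 32.3% lowest on fluoxetine 2, so the brighter range was not fully equal. The number of arrays limits the precision.

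All values were log2-transformed as they stood. The 22326 probe sets (49.6% of 45037) with a geometric mean of at least 50 were tested for fluoxetine minus vehicle by lmFit and eBayes of limma 3.58.1, run in R 4.3.3. The test was two-sided and had no replicate block. The threshold was a Benjamini-Hochberg adjusted p of 0.05 over all of these. Names came from the platform annotation, probe sets with several symbols being left unnamed. The brightest probe set was the same by arithmetic mean for all 42 genes. The fit was tested on 20 simulated sets with independent normal noise and 200 changed probe sets in each. It recovered 2.99% of changes of 0.5 in log2, 69.6% of changes of 1 and 98.1% of changes of 2. Of its calls 6.16% were false. Changes of 0.5 or less would thus seldom be called with this number of arrays.

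The members, lists and pairs were chosen with earlier results of these data known. Named were all collagens above the filter, those below it with an array at 50 or more, and the 2 pathway genes per list with the smallest p. Other pathway and marker genes were named after their values were seen. Alternatives were other filters, an offset of 16, quantile and median scaling, a replicate block, trend and robust variance, array weights, probe set choices, a threshold of 0.10 and leaving out arrays. Marker means over members at 50 or more in both groups, and without Ttr, were added after the values were seen.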

Additional observations from a re-analysis of the deposited data

How the results depend on the processing

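No setting brought any probe set past limma's adjusted threshold: 0 were called under each alternative, including a threshold of 0.10, and unadjusted p under 0.05 was reached by 318 to 2631 (smallest adjusted p 0.742 to 1). With the replicate number as a block, 0 were called too. Same-numbered arrays did not pair: their deviations from the group means correlated at −0.25, −0.03 and −0.50. With no filter, 30 of 42 collagen genes were higher with fluoxetine, 10 of 11 fibrillar genes (median 0.177), 6 of 8 basement membrane genes and 14 of 23 others. Among all genes below the filter 71.3% differed by more than 0. After quantile normalization 18 of the 26 were higher and after the common-median shift 20, when 49.2% and 49.4% of all genes were.

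Leaving out 1 array moved the fibrillar median between 0.274 and 0.746, that of basement membrane genes between 0.0817 and 0.420 and that of all 26 between 0.0387 and 0.180. The median of the other class lay between −0.0284 and 0.0662. Numbers higher were 14 to 18 of 26, 4 to 5 fibrillar, 3 to 4 basement membrane and 7 to 10 of 16 others. Without fluoxetine 1 and vehicle 1 together, chosen after the data were seen, the fibrillar median was 0.0270 and the basement membrane median 0.0993. There Col1a2 (−0.193), Col6a1 (−0.0120), Col8a1 (0.235), Col12a1 (−0.201), Col19a1 (0.00717) and Col20a1 (0.0678) changed sign.

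Signs near 0 also turned elsewhere. With the common median Col4a6 was 0.0417, Col6a2 0.0136, Col20a1 0.0286 and Col26a1 0.0583. With quantile normalization Col6a2 was 0.0288 and Col26a1 0.0171, and with array weights Col6a2 was 0.00756 and Col12a1 −0.132. With probe sets averaged Col8a1 was 0.00836 and Col26a1 0.0355. Leaving out 1 array gave ranges of −0.129 to 0.234 for Col1a2, −0.102 to 0.0461 for Col4a6, −0.00324 to 0.255 for Col6a1, −0.139 to 0.0724 for Col6a2, −0.437 to 0.156 for Col8a1, −0.00559 to 0.454 for Col9a1, −0.221 to 0.232 for Col12a1, −0.123 to 0.529 for Col16a1, −0.0896 to 0.0622 for Col20a1, −0.0214 to 0.461 for Col25a1 and −0.0954 to 0.104 for Col26a1. Of 478 single-gene values under the alternatives 32 changed sign and none passed. The cause of these turns was not tested. The number of arrays limits all of them, the median standard error of the tested collagens being 0.190 in log2.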
